A study of Mus musculus with 5 samples.

Results

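The genes described here build cholesterol and fatty acids in 5 mouse lymphoid cell cultures, each measured on 1 Affymetrix expression array. They were chosen by symbol, with earlier results of these data known. All probe sets annotated to Hmgcs1, Idi1, Fdft1, Sqle, Fasn, Scd1, Scd2 or Srebf1 were taken. They comprised 11 of 12422 probe sets, for 8 of 8251 named genes. A probe set is the group of short probes that reads 1 transcript, and Scd1 had 3 of them, Scd2 had 2 and each other gene had 1. All 11 passed a filter on low values that left 9109 probe sets for testing.

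Of the cultures, 4 descended from AxJ, a mouse plasma cell line, which is the antibody-secreting stage of the B lineage. An empty vector was carried by 1 line, 1 made extra hnRNP-H, an RNA-binding protein, and the remaining pair, subclones B5 and D6, made extra hnRNP-F, a close relative of hnRNP-H. The fifth culture was the mouse line A20, which the labels call memory B cells, with no transfection named. The submitters selected clones by western blot for high hnRNP-F or hnRNP-H, and they describe a lower share of the secreted form of heavy chain mRNA in clones with hnRNP-F. All cultures were kept in log phase in serum-containing medium, with the selection drug G418 for the 4 AxJ lines and without it for A20. Each line is a single culture, and the promoter that drove the transgenes is not given in the sources used here. Empty vector and hnRNP-H served as the AxJ controls.

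Cells make cholesterol through the mevalonate pathway, which runs from acetyl-CoA through isoprenoids and squalene to sterols. Fatty acids are assembled from the same starting unit by fatty acid synthase and are then desaturated or elongated. When sterols in the endoplasmic reticulum run low, SREBP transcription factors are released by cleavage and switch on genes of both branches. Activated B cells and plasma cells draw on these pathways for new membrane, including the large endoplasmic reticulum of secreting cells.

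Markers of the B lineage separated the cultures as labelled. The summed intensity of 10 measured B cell markers, such as Ms4a1 (CD20), was 13153 in A20 and between 2038 and 3986 in the AxJ lines. Their median was 922 in A20 and between 25.3 and 61.2 in the AxJ lines. Of the 10, 9 were higher in A20 than in the mean of empty vector and hnRNP-H, and 1 was lower, by 0.17 on the log2 scale. The summed intensity of 8 plasma cell markers was 2791 in A20 and between 15300.0 and 23444 in the AxJ lines. Sdc1, a defining surface marker of plasma cells, was dim, at 18.3 to 96.2 in AxJ and 3.69 in A20 on one probe set and at 20.2 to 44.9 and 30.6 on the other. Of markers of cells rich in lipid synthesis, 5 of 7 adipocyte genes were on the array and summed to between 64.6 and 174, and 6 of 7 hepatocyte genes summed to between 65.2 and 94.0. Adipoq, a defining adipocyte gene, read at most 17.9 and Alb, a defining hepatocyte gene, at most 42.4. Myeloid genes (7) summed to 395 in B5 and to between 160 and 229 elsewhere, and 5 T cell genes summed to between 54.3 and 124. Gapdh control probes compare both ends of 1 transcript as a check of RNA quality, and their 5' over 3' signal was 0.866 for hnRNP-H, 0.683 for D6, 0.384 for A20, 0.212 for empty vector and 0.181 for B5. Intensities below are quantile normalised, a scaling that gives each array the same distribution, and differences were taken after adding 6.53 and going to log2, which understates changes of dim probe sets.

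**Figure D1:**
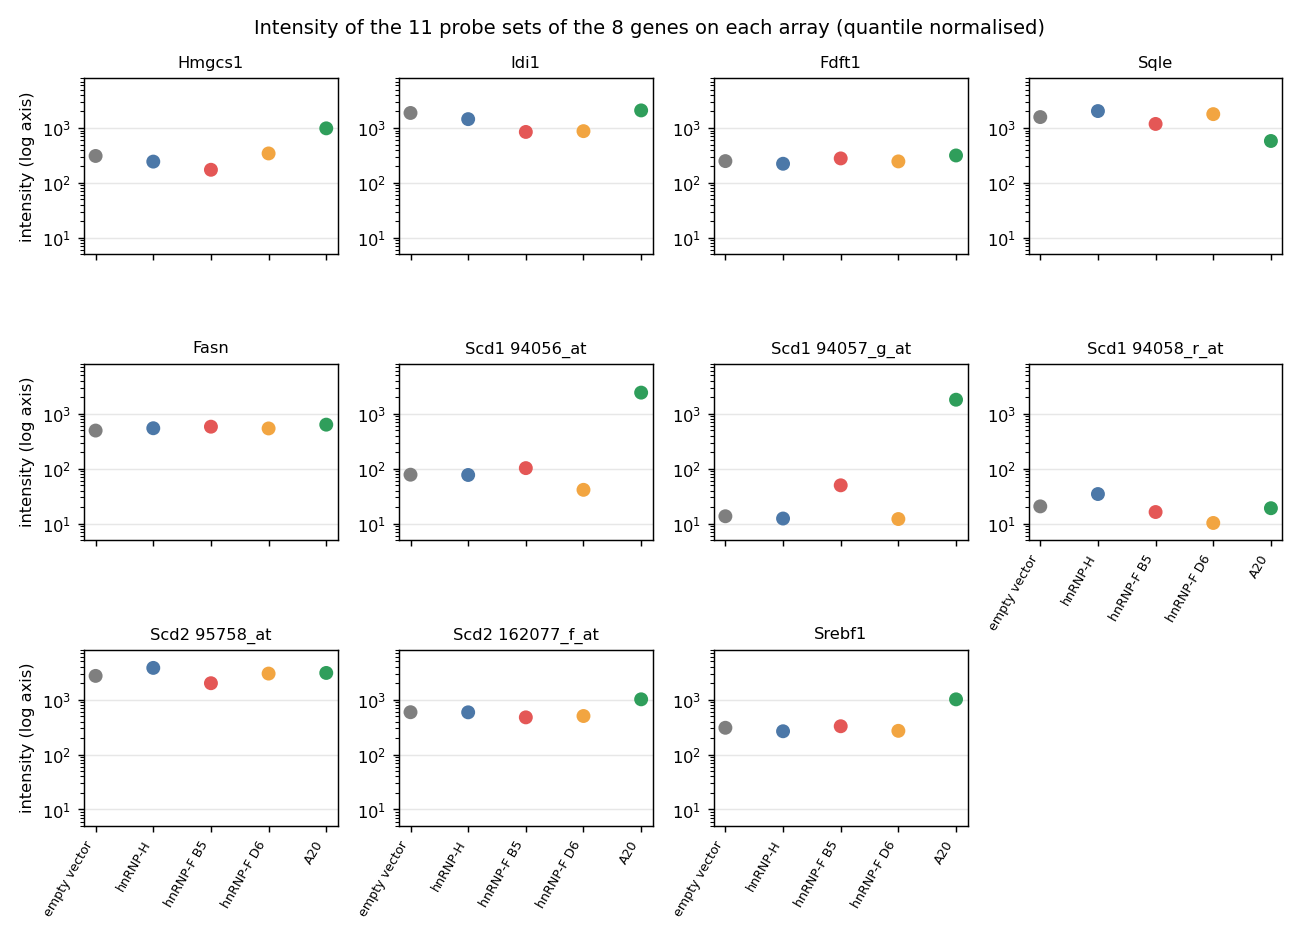
Quantile-normalised intensity (log axis) of each of the 11 probe sets on the 5 arrays, 1 point per array with no replicates of a culture. A20 stands far above the 4 AxJ lines for Scd1 94056_at and 94057_g_at, above them for Hmgcs1 and Srebf1, and below them for Sqle.

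The comparison of A20 with the AxJ controls asked how these genes differ between the B cell line and the plasma cell line. A20 also lacked G418 and a named transfection, so cell stage cannot be told apart from these or from the line itself. The desaturase gene Scd1 was higher in A20 by 4.86 on the log2 scale, and Hmgcs1 of the mevalonate pathway and the regulator gene Srebf1 were 3.56 and 3.54 times the control mean. Sqle, of the sterol branch, was lower. Idi1, Fdft1, Fasn and Scd2 did not pass. In all, 4 of the 11 probe sets rose and 1 fell, covering 3 and 1 of the 8 genes, where 5.88 percent of all 9109 probe sets passed in either direction, 2.9 percent upward and 2.99 percent downward (264 and 272 probe sets, against 364 and 193 under median scaling). A20 lay above all 4 AxJ lines on 8 of the 11 and below them on 1, where 54.9 percent of all probe sets lay outside the AxJ range. The median difference was 0.41 over the 11 probe sets and -0.04 over all tested. The genes were chosen with earlier results of these data known, so these shares and medians are no test of the pathway. Because A20 was measured on 1 array, the test takes its spread from the AxJ arrays, and the A20 side itself has no replicate.

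Hmgcs1 encodes the cytosolic HMG-CoA synthase, which makes the substrate of HMG-CoA reductase. Its intensity was 309 with empty vector, 244 with hnRNP-H, 173 and 344 in clones B5 and D6, and 986 in A20. A20 lay above all AxJ lines, which spanned about 2-fold among themselves. Hmgcs1 rose in A20 by 1.82 (SE 0.44, limma adjusted p = 0.0488), a value just past the threshold. The call was lost when empty vector (adjusted p = 0.0745), hnRNP-H (0.0962) or D6 (0.0573) was left out, without the filter on low values (0.1), without an intensity trend in the spread (0.176) or with a pseudocount of 1 (0.0521). Its difference stayed between 1.66 and 2.09 over all alternatives run.

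Srebf1 encodes SREBP-1, the SREBP that acts mainly on fatty acid genes. It read 308 with empty vector, 266 with hnRNP-H, 328 and 271 in clones B5 and D6, and 1015 in A20. The AxJ lines lay close together, with an SD of 0.14 on the log2 scale over the 4, and A20 lay well above them. Srebf1 rose by 1.80 (SE 0.33, limma adjusted p = 0.0179). The call was lost without D6 (adjusted p = 0.0532) and without the intensity trend (0.111). No probe sequences were at hand, so which transcripts from the alternative starts of this gene the probe set reads was not tested.

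The RefSeq table for GRCm38.p6 gave sequences upstream of the annotated starts of Hmgcs1, Srebf1, Idi1 and Fasn, 4 of the 8 genes, while Sqle, Fdft1, Scd1 and Scd2 had no match. They are shown because the genes on which SREBP acts carry a sterol regulatory element near their start, usually with a site for the factor NF-Y close by. Hmgcs1 and Srebf1 rose in A20, while Idi1 and Fasn did not pass. Each line gives the 250 bases before a start, 5′ to 3′ on the gene's strand, with the core sterol element CACNCCAC and the NF-Y box CCAAT, on either strand, in capitals.
Hmgcs1 (chr13:119690101-119690350, plus strand): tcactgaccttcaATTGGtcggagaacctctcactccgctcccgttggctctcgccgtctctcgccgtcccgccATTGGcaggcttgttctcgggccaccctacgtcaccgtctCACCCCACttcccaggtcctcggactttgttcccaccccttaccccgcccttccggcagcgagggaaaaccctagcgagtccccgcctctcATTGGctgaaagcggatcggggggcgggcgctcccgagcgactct
Srebf1, the innermost of 3 starts (chr11:60210472-60210721, minus strand): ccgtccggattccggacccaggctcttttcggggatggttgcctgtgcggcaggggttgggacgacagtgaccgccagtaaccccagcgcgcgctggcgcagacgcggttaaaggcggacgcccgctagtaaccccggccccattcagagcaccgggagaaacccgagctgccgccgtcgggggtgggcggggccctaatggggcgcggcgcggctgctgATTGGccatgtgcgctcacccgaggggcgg
Idi1 (chr13:8885356-8885605, plus strand): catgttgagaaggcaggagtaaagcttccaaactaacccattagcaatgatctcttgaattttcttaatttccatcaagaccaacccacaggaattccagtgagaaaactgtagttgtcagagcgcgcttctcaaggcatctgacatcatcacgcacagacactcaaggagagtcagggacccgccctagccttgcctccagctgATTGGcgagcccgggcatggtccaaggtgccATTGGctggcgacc
Fasn (chr11:120824548-120824797, minus strand): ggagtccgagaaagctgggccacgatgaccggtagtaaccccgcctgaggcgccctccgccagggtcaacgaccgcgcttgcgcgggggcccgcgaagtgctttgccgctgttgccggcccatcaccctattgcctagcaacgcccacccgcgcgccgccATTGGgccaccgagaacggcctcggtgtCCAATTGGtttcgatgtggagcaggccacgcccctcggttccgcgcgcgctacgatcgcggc

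The longer sterol element TCACNCCAC occurred once in the Hmgcs1 sequence, as TCACCCCAC beginning 137 bases before the start, and the core CACNCCAC lies within it. The CCAAT box stood at 3 places in Hmgcs1, beginning 237, 176 and 45 bases before the start, at 2 in Idi1 and at 3 in Fasn, of which a pair overlap by 2 bases. It stood at 1 place upstream of 2 of the 3 Srebf1 starts. Both strands were searched. Over all 32851 promoters of the same table, 1.05 percent held TCACNCCAC, 5.29 percent held the core and 33.8 percent held CCAAT. The GC box GGGCGG, the site of Sp1, was upstream of Hmgcs1, Idi1 and 2 of the 3 Srebf1 starts and in 32.7 percent of all promoters, and the E box CACGTG was found in none of the 6 member sequences and in 6.02 percent of all. A match describes the letters in this window only. Sterol elements that depart from the searched letters were not looked for, so an unmarked sequence may still hold one.

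**Figure D2:**
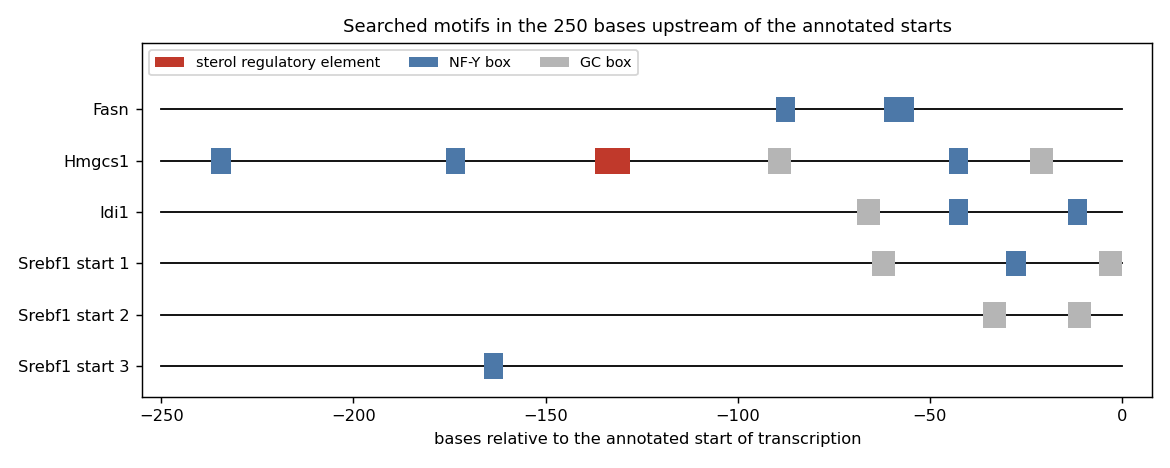
Positions of the searched motifs in the 250 bases before 6 annotated starts of Fasn, Hmgcs1, Idi1 and Srebf1, with the horizontal axis in bases from the start. Only the Hmgcs1 sequence holds the exact letters TCACNCCAC, searched for as the sterol regulatory element, while 5 of the 6 sequences hold an NF-Y box. Variants of these letters were not searched.

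Idi1 encodes the isomerase that interconverts the basic isoprenoid units. It read 1878 with empty vector, 1451 with hnRNP-H, 847 and 876 in clones B5 and D6, and 2092 in A20. A20 and empty vector were close, and the difference of A20 from the controls was 0.34 (SE 0.30, limma adjusted p = 0.618), with an unadjusted 95% interval from -0.35 to 1.03. It ranged from 0.15 without hnRNP-H to 0.81 against all 4 AxJ lines. Fdft1, squalene synthase, opens the branch committed to sterols and read 249, 223, 279, 246 and 316 in the same order of arrays. A20 was the highest, but by only 0.17 over the nearest AxJ line, and the difference of 0.41 (SE 0.33, limma adjusted p = 0.583) did not pass, nor did the 0.74 found under median scaling (adjusted p = 0.283).

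Sqle encodes squalene epoxidase, the oxygen-requiring step after squalene synthase and a rate-limiting one. It read 1582 with empty vector, 2035 with hnRNP-H, 1185 and 1789 in clones B5 and D6, and 580 in A20. A20 lay below all 4 AxJ lines, opposite in direction to Hmgcs1. Sqle fell by 1.62 (SE 0.35, limma adjusted p = 0.0316). The call was lost under median scaling (adjusted p = 0.0796), without the filter (0.0697), without the intensity trend (0.166) and without hnRNP-H (0.0613), B5 (0.0507) or D6 (0.0588), while the difference stayed between -1.76 and -1.32. The AxJ arrays with the higher Gapdh ratio, hnRNP-H and D6, were also the higher ones for Sqle, and the part of the ratio in this was not tested.

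Scd1 and Scd2 encode stearoyl-CoA desaturases, which put the first double bond into saturated fatty acids, and lie on chromosome 19 with 87.6 kb between their annotated ends in GRCm38.p6. The brightest Scd1 probe set, 94056_at, read 77.9 with empty vector, 76.9 with hnRNP-H, 103 and 41.3 in clones B5 and D6, and 2437 in A20. The second, 94057_g_at, read 13.6, 12.4, 49.9, 12.1 and 1810 in the same order. On both probe sets A20 stood far above every AxJ line. Scd1 rose by 4.86 (SE 0.50, limma adjusted p = 0.00131) on the first and by 6.54 (SE 0.65, adjusted p = 0.00113) on the second. Both calls held in each of the 12 alternatives, with differences of 4.50 to 4.97 and of 5.36 to 7.02. The third probe set, 94058_r_at, was dim on all arrays, with 20.6, 34.6, 16.3, 10.3 and 19.1, and did not share the rise (-0.38, SE 0.66, limma adjusted p = 0.824). Whether the Scd1 probe sets share probes was not tested, so they may not be independent readings.

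Scd2 did not follow its neighbour. Its bright probe set 95758_at read 2716 with empty vector, 3798 with hnRNP-H, 1998 and 2993 in clones B5 and D6, and 3073 in A20. A20 fell inside the range of the AxJ lines, and the difference of -0.06 (SE 0.35, limma adjusted p = 0.956) had a 95% interval from -0.87 to 0.74. This difference turned to above 0 under median scaling, without hnRNP-H and against all 4 AxJ lines. The other Scd2 probe set, 162077_f_at, read 592, 589, 477, 505 and 1017. It stood higher in A20 by 0.78 (SE 0.30, limma adjusted p = 0.192) and did not pass, although A20 exceeded each AxJ line by at least 0.77. The maker's suffix f marks probe sets whose probes can match several members of a sequence family, and the part of Scd1 transcripts in this reading was not tested.

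Fasn encodes fatty acid synthase, which assembles palmitate. It was the steadiest of the 8 genes, with 496 with empty vector, 547 with hnRNP-H, 584 and 542 in clones B5 and D6, and 636 in A20, a range of 0.35 on the log2 scale. The A20 difference of 0.28 (SE 0.30, limma adjusted p = 0.689) had an unadjusted 95% interval from -0.41 to 0.98. It came to 0.57 (SE 0.35) under median scaling and did not pass under any alternative (adjusted p from 0.423 to 0.822).

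**Figure D3:**
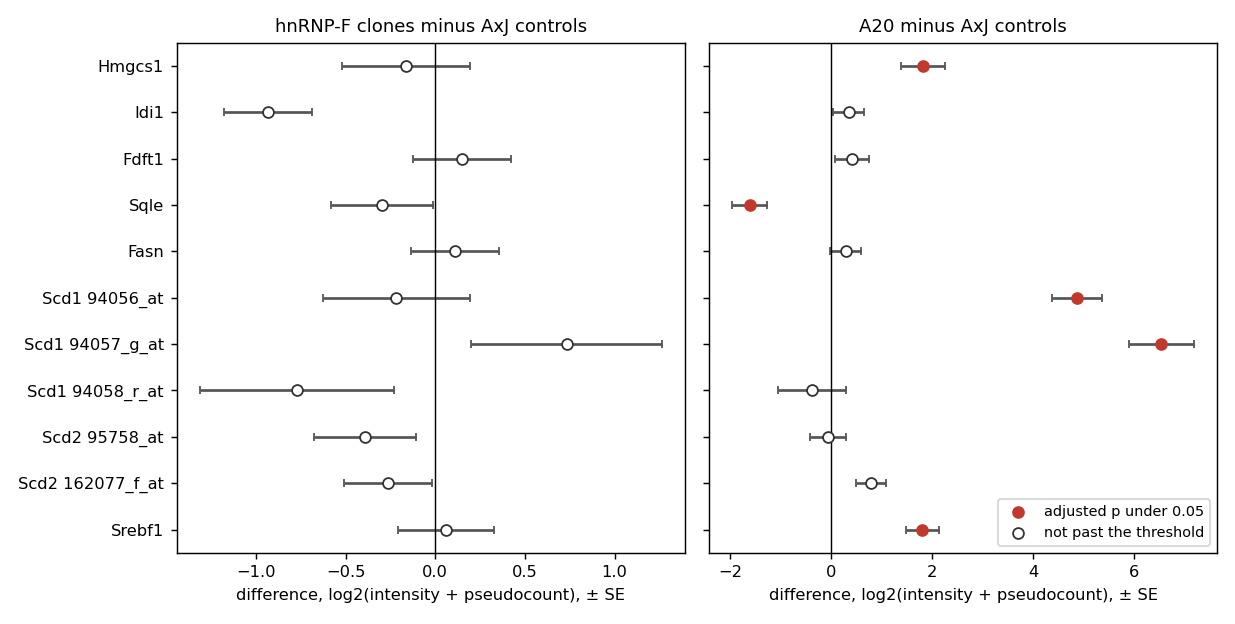
Differences of the 11 probe sets on the scale of log2(intensity + 6.53), with SE from limma, for the 2 hnRNP-F clones (left) and A20 (right), each minus the 2 AxJ controls. The horizontal scales differ. Filled points passed an adjusted p of 0.05, which 5 probe sets did for A20 and 0 for the hnRNP-F clones.

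The comparison of the hnRNP-F clones with the AxJ controls asked whether excess hnRNP-F shifts these genes within the plasma cell line. None of the 11 probe sets passed with limma (adjusted p from 0.790 to 0.976), where 0.011 percent of all 9109 did, and 1 of the 11, Idi1, had an unadjusted p under 0.05, where 5.79 percent of all had one. The median difference was -0.22 over the 11 probe sets and 0.01 over all tested. Both clones lay below both controls on 3 probe sets and above both on 0, where 37.6 percent of all probe sets had the pair of clones entirely above or entirely below the controls. Among the 3, Scd1 94058_r_at passed the filter on low values only through the hnRNP-H control, so that 2 remain without it.

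Idi1 showed the widest gap. The clones read 847 and 876, a spread of 0.05 on the log2 scale, against 1878 and 1451 in the controls. The difference was -0.93 (SE 0.25, unadjusted p = 0.00477, limma adjusted p = 0.790) and did not pass under any alternative, with adjusted p from 0.14 to 0.999 and differences from -1.13 to -0.74. Taken between arrays of like Gapdh ratio, it was -1.14 for B5 against empty vector and -0.72 for D6 against hnRNP-H. Scd2 162077_f_at, also lower in both clones, differed by -0.26 (SE 0.24). The dim Scd1 94058_r_at stood at -0.77 (SE 0.54).

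The remaining genes showed no common direction in the hnRNP-F clones. Sqle differed by -0.30 (SE 0.28) and Scd2 95758_at by -0.39 (SE 0.29), and on both the clones and controls overlapped, with hnRNP-H highest and B5 lowest of the AxJ lines. Sqle came to -0.0060 without B5 and -0.61 without D6, and Scd2 95758_at to -0.11 and -0.69. Hmgcs1 differed by -0.16 (SE 0.36), because B5 at 173 lay below and D6 at 344 above both controls. Scd1 differed by -0.22 (SE 0.41) on 94056_at and by 0.73 (SE 0.53) on 94057_g_at, where B5 alone was raised. Fdft1 (0.15, SE 0.27), Fasn (0.11, SE 0.25) and Srebf1 (0.06, SE 0.27) stood nearest to 0. With 1 array left out, Fdft1 lay between 0.06 and 0.24, Fasn between 0.04 and 0.18 and Srebf1 between -0.077 and 0.19.

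With 1 array a side, hnRNP-H against empty vector and D6 against B5 were described without a test. Between hnRNP-H and empty vector, 0 of the 11 probe sets differed by 2-fold, where 18.1 percent of all did. The most different was Scd1 94058_r_at at 0.60, and among the brighter ones Scd2 95758_at stood at 0.48, Idi1 at -0.37, Sqle at 0.36 and Hmgcs1 at -0.33. Between clone D6 and clone B5, 2 of the 11 differed by 2-fold, where 12 percent of all did. Both read Scd1, with -1.19 on 94056_at and -1.60 on 94057_g_at, so Scd1 was lower in D6. With a pseudocount of 32 they came to -0.88 and -0.89, under 2-fold. Hmgcs1 was higher in D6 by 0.96, and Sqle and Scd2 95758_at by 0.59 and 0.58, while Idi1 differed by 0.05. Sqle and Scd2 95758_at were thus higher in hnRNP-H than in empty vector and in D6 than in B5. In each pair that was the array with the higher Gapdh ratio, whose part was not tested. Srebf1 (-0.21 and -0.27) and Fdft1 (-0.16 and -0.18) were lower on that array in both pairs. So were Scd1 94056_at (-0.02 and -1.19) and 94057_g_at (-0.09 and -1.60).

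The rest of the pathway was read through lists of genes by role, with 1 probe set per gene. Of 14 measured enzymes of sterol synthesis other than the members, 0 of 14 passed in A20 with limma and 3 had an unadjusted p under 0.05, where 19.3 percent of all probe sets had one. Their median was -0.17, against -0.03 over the 6628 genes tested in all, of which 3.23 percent rose and 3.39 percent fell, the background for each list below. Ggps1, which makes the lipid anchor of small GTPases, stood at -1.38 (SE 0.38, limma adjusted p = 0.0755) and Mvd, a mevalonate pathway decarboxylase, at 1.43 (SE 0.43, adjusted p = 0.101). The Ggps1 probe set carries the suffix f, and the part of other transcripts in its reading was not tested. Mvd read 83.9 with empty vector, 155 with hnRNP-H, 166 and 152 in clones B5 and D6, and 319 in A20. Of the 14, 6 stood above 0 and 8 below.

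Only 3 of 10 listed genes of SREBP control were on the array, and Insig1 and Nr1h3 were too dim to test. Mbtps1, the protease that makes the first SREBP cut, differed by -0.33 in A20 (SE 0.35, limma adjusted p = 0.689). Of 9 genes of cholesterol uptake and transport, 1 fell in A20 and 0 rose (median -0.32). Of the 9, 4 stood above 0, the highest at 3.04 and not past the threshold, and 5 below. The gene that fell was Npc2, which binds cholesterol in lysosomes, at 1287 and 1432 in the controls, 1095 and 1452 in the clones and 386 in A20. It fell by 1.80 (SE 0.31, limma adjusted p = 0.0151) and lost its call without the intensity trend (0.119).

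Of 11 other genes of fatty acid synthesis, 2 fell in A20 and 0 rose (median 0.07). Me1, the malic enzyme that supplies NADPH for fatty acid synthesis, read 125 with empty vector, 87.6 with hnRNP-H, 144 and 142 in clones B5 and D6, and 3.04 in A20. It fell by 3.54 (SE 0.44, limma adjusted p = 0.00328). Elovl5, an elongase of polyunsaturated fatty acids, read 916 and 876 in the controls, 455 and 721 in the clones and 224 in A20, and fell by 1.97 (SE 0.36, adjusted p = 0.0179). Elovl5 lost its call without the intensity trend (adjusted p = 0.12). Both genes thus went opposite to Scd1 and Srebf1.

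Genes of fatty acid oxidation, the opposing pathway, were mixed as well. Of 11 tested, 1 rose and 1 fell in A20 (median -0.54). Cpt1a, which governs entry of fatty acids into mitochondria, read between 328 and 403 in the AxJ lines and 25.1 in A20, and fell by 3.59 (SE 0.34, limma adjusted p = 0.000987). Hadh, a dehydrogenase of the same pathway, read between 109 and 192 in AxJ and 627 in A20, and rose by 1.96 (SE 0.43, adjusted p = 0.0351). The Hadh call was lost without hnRNP-H (adjusted p = 0.0663), without D6 (0.0597), without the filter (0.0736) and without the intensity trend (0.144).

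Of 15 genes of phospholipid and glycerolipid synthesis, 12 lay below 0 in A20, where 51.7 percent of all 6628 genes did, and 1 fell and 0 rose (median -0.26). The one that fell was Cds2, which makes the CDP-diacylglycerol used for phosphoinositides, at 174 and 232 in the controls, 246 and 172 in the clones and 3.58 in A20. It fell by 4.36 (SE 0.42, limma adjusted p = 0.00103). For Me1 and Cds2 the A20 reading lay below the pseudocount, which therefore sets the size of the fall.

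**Figure D4:**
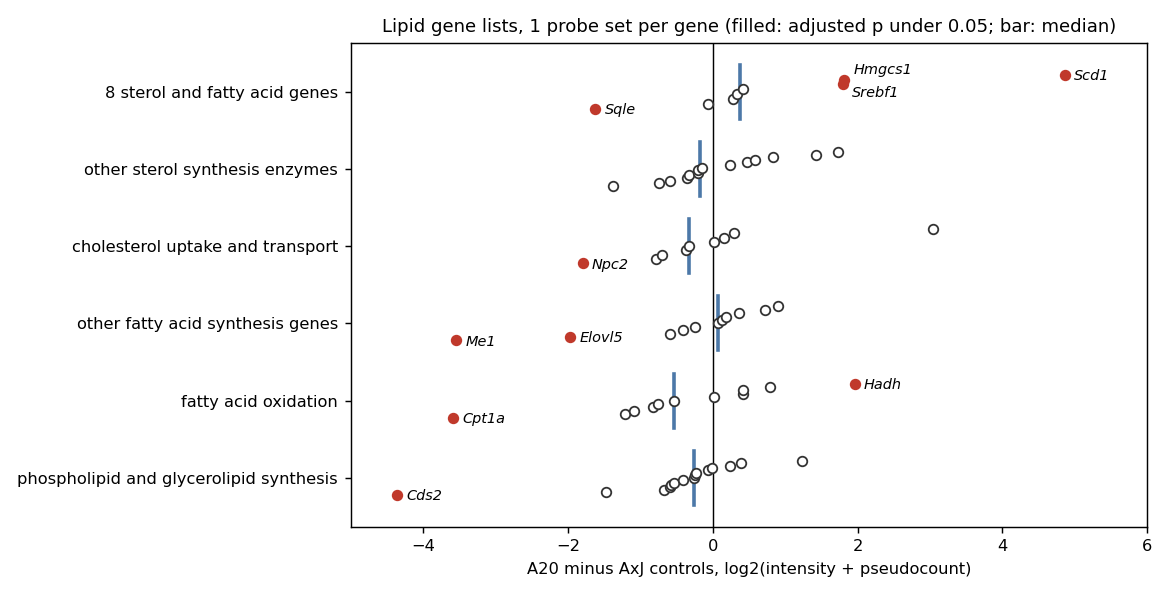
Differences of A20 minus the AxJ controls on the scale of log2(intensity + 6.53), 1 point per gene, for the 8 genes and 5 lists of other lipid genes. Filled points passed an adjusted p of 0.05 and bars mark medians, which lie between -0.54 for fatty acid oxidation and 0.38 for the 8 genes.

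In the hnRNP-F clones, 0 of the 61 genes tested in these lists passed with limma (adjusted p from 0.79 to 0.999), and 2 had an unadjusted p under 0.05, where 5.79 percent of all probe sets had one. The 2 genes with the largest test statistic in each list, given in order of their difference, were Lipa, the lysosomal lipase that frees cholesterol, at 1.30 (SE 0.46), Elovl6, which elongates palmitate, at -0.88 (SE 0.33), Dhcr7, the last enzyme of cholesterol synthesis, at 0.88 (SE 0.47), Cdipt at 0.77 (SE 0.39), Msmo1, a sterol demethylation enzyme, at -0.70 (SE 0.31), Scarb1 at 0.65 (SE 0.40) and Elovl5 at -0.64 (SE 0.29), then Acadl (-0.60, SE 0.40), Cpt2 (0.55, SE 0.27) and Etnk1 (-0.51, SE 0.25). Lipa read 41.3 and 117 in the controls, 204 in B5 and 163 in D6. Between hnRNP-H and empty vector, the most different gene of each list that held one past 2-fold was Hsd17b7 (2.43), Apoe (2.05), Pcyt2 (1.37) or Hsd17b12 (1.27), each higher in hnRNP-H. Of these, Hsd17b7 and Apoe were dim, with at most 48.5 on any array. Apoe was also higher in D6 than in B5, by 1.05, so that it was high on the arrays with the higher Gapdh ratio, whose part was not tested. This Apoe probe set passed the filter on low values only through those arrays, hnRNP-H and D6, so the filter itself favoured the pattern. The other Apoe probe set went the opposite way in both comparisons, at -1.38 and -0.59.

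Genes with the pattern most like each member were found by the root mean square distance between log2 profiles over the 5 arrays, each centred on its own mean. This was done for the 5 genes whose range exceeded 1 on the log2 scale. Nearest to Scd1 were Reln, at a distance of 0.27, and Ms4a1, the CD20 gene, at 0.33, which read between 25.5 and 74.2 in the AxJ lines and 2544 in A20. Nearest to Hmgcs1 were Hadh (0.13) and Stk10 (0.14), and nearest to Srebf1 were Rpia (0.09) and Actn4 (0.11). Nearest to Sqle were Stt3a (0.09) and Mrpl16 (0.11). Nearest to Idi1 were Ints8 (0.07) and Hnrnpk (0.08), the latter reading 546 and 411 in the controls, 239 and 250 in the clones and 527 in A20. With 5 arrays many genes can share a profile, so these are descriptions of likeness only.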

How the data were processed

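Polyadenylated RNA of each culture was hybridised to 1 Affymetrix array, per the labels' protocols. The authors deposited linear intensity values, which the values show to be scaled to a trimmed mean of about 150.1 per array; no source used here gives the software, the background step or detection calls. Symbols came from the 2016 array annotation, updated through gene identifiers; 1 symbol was assigned to 10855 probe sets, several to 396 and none to 1237. The 66 control probe sets were left out. Because the A20 median lay 11.55 percent below the mean of the medians (limit 10), arrays were quantile normalised. Values became log2(intensity + 6.53), the 20th percentile, and probe sets with a highest value above 21.8, the 40th percentile, were kept.

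A linear model over the 5 arrays with 3 coefficients (hnRNP-F clones, AxJ controls, A20) and 2 residual degrees of freedom gave the differences, using lmFit and eBayes (trend on) of limma 3.58.1 under R 4.3.3. Two-sided p-values were adjusted by Benjamini and Hochberg's method across 9109 probe sets, threshold 0.05. Spread includes the difference between hnRNP-H and empty vector and that between clones B5 and D6. It thus holds differences between these lines and technical ones, which cannot be told apart. No label names separate cultures of a line, so a p-value here reflects the spread between these arrays alone. The number of arrays limits the precision. The fit was also tested on simulated data, with the spread of each probe set taken from the fit to these arrays. A20 was given that same spread, which its single array cannot check. The fit recovered 20 percent of 2-fold and 76 percent of 4-fold changes for the hnRNP-F clones, and 6 and 56 percent for A20. Of 150 simulated calls for the clones 8 were false, and of 131 for A20 10 were false. Lists used the probe set with the highest mean per gene. Named were all members, from each list up to 4 genes past the threshold or otherwise the 2 with the largest statistic, the most different gene past 2-fold without a test, and the 2 nearest profiles. Members and lists were chosen with earlier results of these data known.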

Additional observations from a re-analysis of the deposited data

How the results depend on the processing

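Alternatives changed the scaling, the pseudocount (1 or 32), the filter, the intensity trend, the grouping and the arrays used, and a block for arrays of like Gapdh ratio was added after seeing the data. That block, which pairs B5 with empty vector and D6 with hnRNP-H, left 0 member probe sets past the threshold in the hnRNP-F clones (Idi1 adjusted p = 0.658), as did every alternative run. The labels give no replicate numbers shared between groups, so no fit blocked on a replicate number was made.

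For A20, member probe sets past the threshold numbered 5, but 3 when dim probe sets were kept and 2 with no intensity trend, and between 2 and 4 with 1 AxJ array left out. Member genes numbered 4, but 2 without the filter and 1 without the trend, and between 1 and 3 with 1 array left out. Scd1 passed in each. Probe sets of any gene past the threshold numbered 536, but 311 without the filter and 145 without the trend, and between 284 and 748 with 1 array left out. In the hnRNP-F clones the count of 1 went to 0 without the filter and to 0 without the trend, and lay between 1 and 3 with 1 array left out. The causes were not tested.

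None of the differences that changed sign had passed the threshold. For A20, Scd2 95758_at came to 0.0036 under median scaling, between -0.29 and 0.18 with 1 array left out (0.18 without hnRNP-H) and 0.13 against all 4 AxJ lines, and Scd1 94058_r_at, at -0.38 otherwise, to 0.0025 against all 4. For the hnRNP-F clones, with 1 array left out, Hmgcs1 lay between -0.65 and 0.31 (0.0015 without empty vector, 0.31 without B5), Srebf1 between -0.077 and 0.19 (-0.04 without hnRNP-H, -0.077 without B5), Scd1 94056_at between -0.83 and 0.38 (the latter without D6) and Scd1 94057_g_at between -0.066 (without B5) and 1.53. Between hnRNP-H and empty vector, untested, median scaling turned Srebf1 from -0.21 to 0.04, Fdft1 from -0.16 to 0.06, Scd1 94056_at from -0.02 to 0.12 and Scd2 162077_f_at from -0.0075 to 0.18. The median A20 difference over all probe sets was -0.04, but -0.14 under the authors' scaling and 0.07 under median scaling. Signal over background is unknown, which limits what the dim Scd1 94058_r_at can show; it had no value under 2 of the alternatives, where it was filtered out.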
